A study of Mus musculus with 12 samples.

Results

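Genes of sterol and fatty acid synthesis that are known targets of the SREBP transcription factors, together with the genes that control those factors, were followed in cultured mouse microglia. The group was chosen by gene name and holds 32 genes, of which 18 act in sterol synthesis, 6 in the control of SREBP or the transport of its sterol signal, and 8 in fatty acid synthesis. Probes were assigned through their transcript accessions, which gave 44 probes for these genes. All 32 genes were among the 19802 genes that could be tested after a filter on dim probes, and 30 of them were well above background on all 12 arrays. The exceptions were Scd1, well above background on 7 arrays, and Fads2, on 8.

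The cells were primary microglia, shaken off mixed glial cultures from newborn C57BL/6 mice, so each array reports a purified culture and not tissue. They were exposed for 16 h to the supernatant of a Th1 culture or of a Th17 culture, or to T cell medium alone, the group labelled untreated. Th1 and Th17 are helper T cell classes that produce interferon-gamma and interleukin-17, respectively, and each supernatant is a mixture of everything such cells release. Each group holds 4 arrays, 1 from each of the independent experiments 12, 13, 14 and 16. All cells came from the same inbred strain, and no group carried a transgene or deletion by the labels. The Th1 supernatant was mixed with an equal volume of medium, and how the Th17 supernatant was made is not given in the sources used here.

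Cells make cholesterol from acetyl-CoA through mevalonate, squalene and lanosterol. SREBP proteins are made as precursors in the membrane of the endoplasmic reticulum, where Scap escorts them to the Golgi for cleavage when sterols are low, while Insig proteins hold Scap back when sterols are high. The freed SREBP2 fragment raises transcription of sterol genes, so that these transcripts are low in a sterol-replete cell. SREBP1c favours fatty acid genes. Microglia take up cholesterol-rich myelin and also make their own sterols.

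Between 54.54% and 65.04% of probes were well above background on each array. All 10 microglia markers (Csf1r, Itgam, Aif1 and others) were well above background on all 12 arrays. Their mean log2 signal was 15.07 to 15.77 on untreated, 14.09 to 14.71 on Th1 and 15.15 to 15.82 on Th17 arrays, and 4 of them fell and 2 rose after Th1 supernatant. Of 10 astrocyte markers 7 were measured, and Slc1a2, Gja1 and Sox9 did not pass the filter. Their mean log2 signal was 8.15 to 8.69 on the 3 arrays of experiment 14 and 7.17 to 7.87 on the other 9. Within each group the 8 measured oligodendrocyte lineage markers also had their highest mean in experiment 14. This mean was 9.27 to 9.79 there and 8.51 to 9.29 on the other arrays, and Olig2 and Pdgfra did not pass the filter. Single markers went the other way, such as Aldh1l1 (772) and Mog (291), each of which was lowest on untreated 14 among the untreated arrays. Of 10 T cell markers 5 were measured, and Cd3g, Cd3d, Cd2, Trac and Il2ra were not. Their mean log2 signal was 9.78 to 9.93 on untreated, 8.70 to 9.09 on Th1 and 9.19 to 9.75 on Th17 arrays. Single markers, named after their values were seen, moved apart after Th1 supernatant. Among microglia markers Cx3cr1 (-6.31 ± 0.70), Trem2 (-2.50 ± 0.22), Fcrls (-2.41 ± 0.35) and Tmem119 (-2.29 ± 0.48) fell. Aif1 (1.18 ± 0.26) and P2ry12 (1.61 ± 0.22) rose. Among T cell markers Cd28 (-5.28 ± 0.48) and Cd5 (-1.31 ± 0.15) fell and Lck rose by 2.35 ± 0.25, while Cd3e differed by -0.31 ± 0.20 and Cd4 by -0.15 ± 0.14. Fabp7 was the astrocyte marker that fell (-2.24 ± 0.35). Of the oligodendrocyte lineage markers Mbp (-1.60 ± 0.29) and Cspg4 (-4.24 ± 0.24) fell, and Mag (2.06 ± 0.16) and Cnp (1.67 ± 0.20) rose. The part of these marker levels in the results was not tested.

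Sterol synthesis genes were lower after Th1 supernatant from its early steps to its late ones. Calls needed more than a 2-fold change together with an adjusted p below 0.01 from limma. By this rule 12 of the 18 sterol genes fell against untreated microglia and none rose. Of all 19802 genes tested, 7.88% were called lower and 7.49% higher in the same comparison. The median change of the 18 genes was -2.02 on the log2 scale, a 4.04-fold lower signal, beside a median of -0.06 over all genes. The theme is one the study itself raised from these cells, so its direction is not independent evidence. In a culture, fewer cells that hold a transcript and less of it in each cell cannot be told apart.

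**Figure D1:**
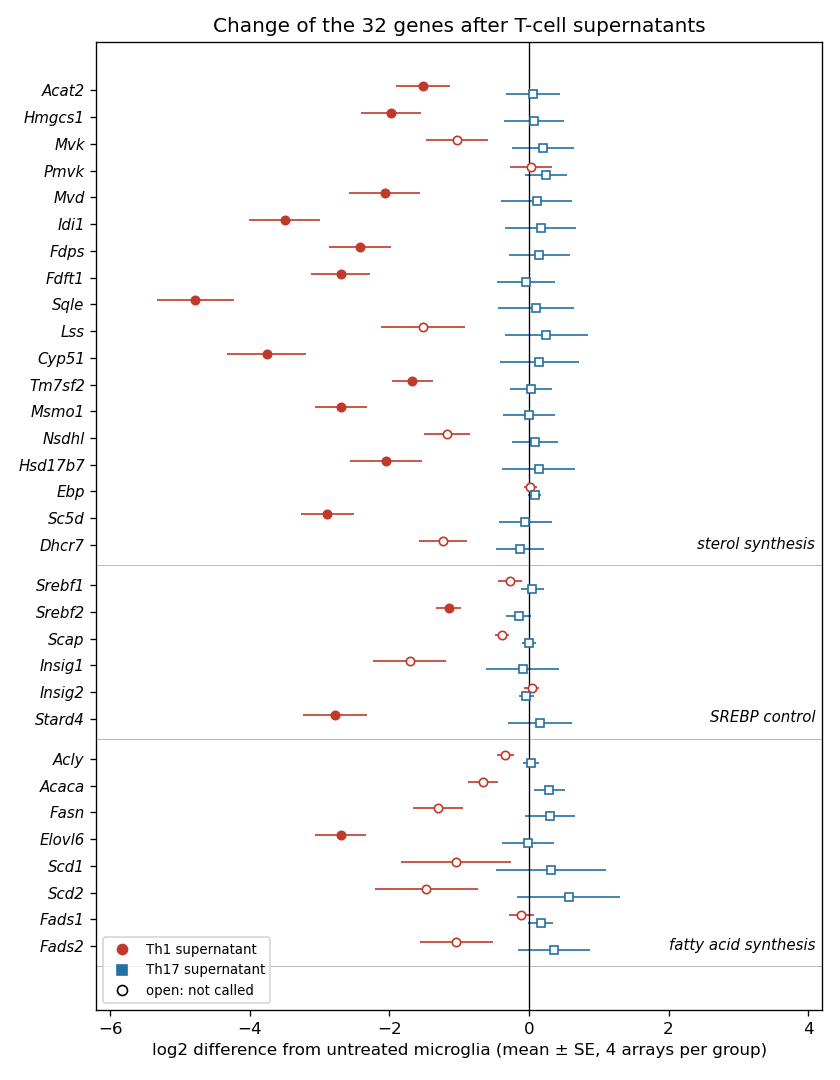
Log2 difference from untreated microglia (horizontal axis, mean ± SE of the limma model, 4 arrays per group) for the 32 genes, with Th1 supernatant as red circles and Th17 supernatant as blue squares. Filled symbols passed the call rule: 15 genes do after Th1 supernatant, all to the left of 0, and none after Th17 supernatant.

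The early steps build isoprenoid units. Hmgcs1, the HMG-CoA synthase, gave normalised signals of 31518, 19375, 9407 and 33135 on the untreated arrays of experiments 12, 13, 14 and 16, and of 5095, 5154, 4560 and 6529 on the matching Th1 arrays. Every Th1 array lay below every untreated array, and the fall was 1.98 ± 0.43 (log2 ± SE, adjusted p = 0.00304). Acat2, the thiolase that joins acetyl-CoA units, fell from 268 to 618 down to 117 to 185, a change of -1.52 ± 0.39. Mvd, which decarboxylates mevalonate diphosphate, fell 4.19-fold, from 1450 to 4643 down to 455 to 802.

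Idi1, the isomerase of the activated isoprene unit, had untreated signals of 14429, 7927, 4091 and 17067 and Th1 signals of 826, 776, 458 and 1654. The ranges were far apart and the fall was 11.3-fold (adjusted p = 0.00022, with an SE of 0.51 on the log2 scale). Fdps, the farnesyl diphosphate synthase that also feeds protein prenylation, read 16869 to 57866 untreated and 5254 to 10226 after Th1 supernatant, a fall of 2.42 ± 0.44. The kinases of the same stretch were not called. Pmvk read 8436 to 21623 untreated and 13991 to 16881 after Th1 supernatant, a difference of 0.03 ± 0.30 with a 95% interval of -0.63 to 0.69. Mvk, the mevalonate kinase, differed by -1.03 ± 0.44 (adjusted p = 0.0759), and on untreated 14 its signal of 3640 was as low as that of Th1 14, 3627. Without untreated 14 it was called (adjusted p = 0.00446).

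The steps committed to sterols held the largest change among the 32 genes. Sqle encodes squalene epoxidase, which adds the first oxygen to squalene. Its untreated signals were 19175, 9840, 5584 and 20384, and its Th1 signals 390, 387, 222 and 1112. The lowest untreated array was thus several times the highest Th1 array, and the fall was 27.5-fold (4.78 ± 0.55, adjusted p = 3.68e-05). Fdft1, the squalene synthase just before it, fell 6.48-fold by its brighter probe, from 1863 to 5620 down to 432 to 637. A second Fdft1 probe with a mean signal of 78.2 differed by only -0.29, and the mean of both probes fell by 1.49. Lss, which closes the rings to lanosterol, differed by -1.52 ± 0.60 (adjusted p = 0.0587). Its groups overlapped through untreated 14, at 788, and Th1 16, at 1057, and it was called with the experiments as blocks (adjusted p = 0.00244), a model that called 9.31% of all genes lower.

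Of the 8 genes that trim lanosterol to cholesterol, 5 fell. Cyp51, the lanosterol demethylase and a target of antifungal azoles in microbes, read 2170, 1075, 622 and 2711 on untreated arrays and 59, 62, 195 and 162 on Th1 arrays, a log2 difference of -3.76 ± 0.57 (adjusted p = 0.000274). Unlike most sterol genes it was higher on Th1 14 than on Th1 12 and 13. Msmo1, the C4 methyl sterol oxidase, fell 6.47-fold, from 24561 to 61068 down to 4910 to 10838. Sc5d, the sterol C5 desaturase, fell 7.41-fold, from 4838 to 12816 down to 994 to 1346. Tm7sf2, a C14 sterol reductase, fell by 1.67 ± 0.30, and Hsd17b7, a 3-ketosterol reductase, by 2.05 ± 0.52. Nsdhl, which works beside Msmo1, and Dhcr7, the last reductase of one branch, were lower on every Th1 array than on any untreated array without passing the rule (-1.18 ± 0.33, adjusted p = 0.0139, and -1.23 ± 0.34, adjusted p = 0.0128). Dhcr7 was called with the experiments as blocks (adjusted p = 0.00112) and without Th17 16 (0.00677), Nsdhl without Th17 12 (0.00937), and both without untreated 14 (0.00613 for each). Ebp, the sterol isomerase, read 24346 to 28206 untreated and 24415 to 28001 after Th1 supernatant. Its 95% interval ran from -0.17 to 0.22, so that a change beyond 1.16-fold upward or to 0.89 of the untreated level lay outside it.

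The groups did not overlap for 14 of the 18 sterol genes, where 21.9% of all genes were lower on every Th1 array than on any untreated one. Of the 12 called genes, 8 (Idi1, Fdps, Fdft1, Sqle, Cyp51, Tm7sf2, Msmo1 and Sc5d) were also called in each of 23 other settings, which left out single arrays or experiment 14 or altered the processing. Acat2, Mvd and Hsd17b7 each passed in 13 of the 23. All 3 lost the call without untreated 12, untreated 16 or any 1 of the 4 Th1 arrays, and Hsd17b7 also without untreated 13, with adjusted p between 0.0101 and 0.0243 in these fits. With normexp background correction Acat2 differed by -0.95. Hmgcs1 passed in 20, and missed without untreated 12 (0.0108), without untreated 16 (0.0101) or with no filter on dim probes (0.0114).

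**Figure D2:**
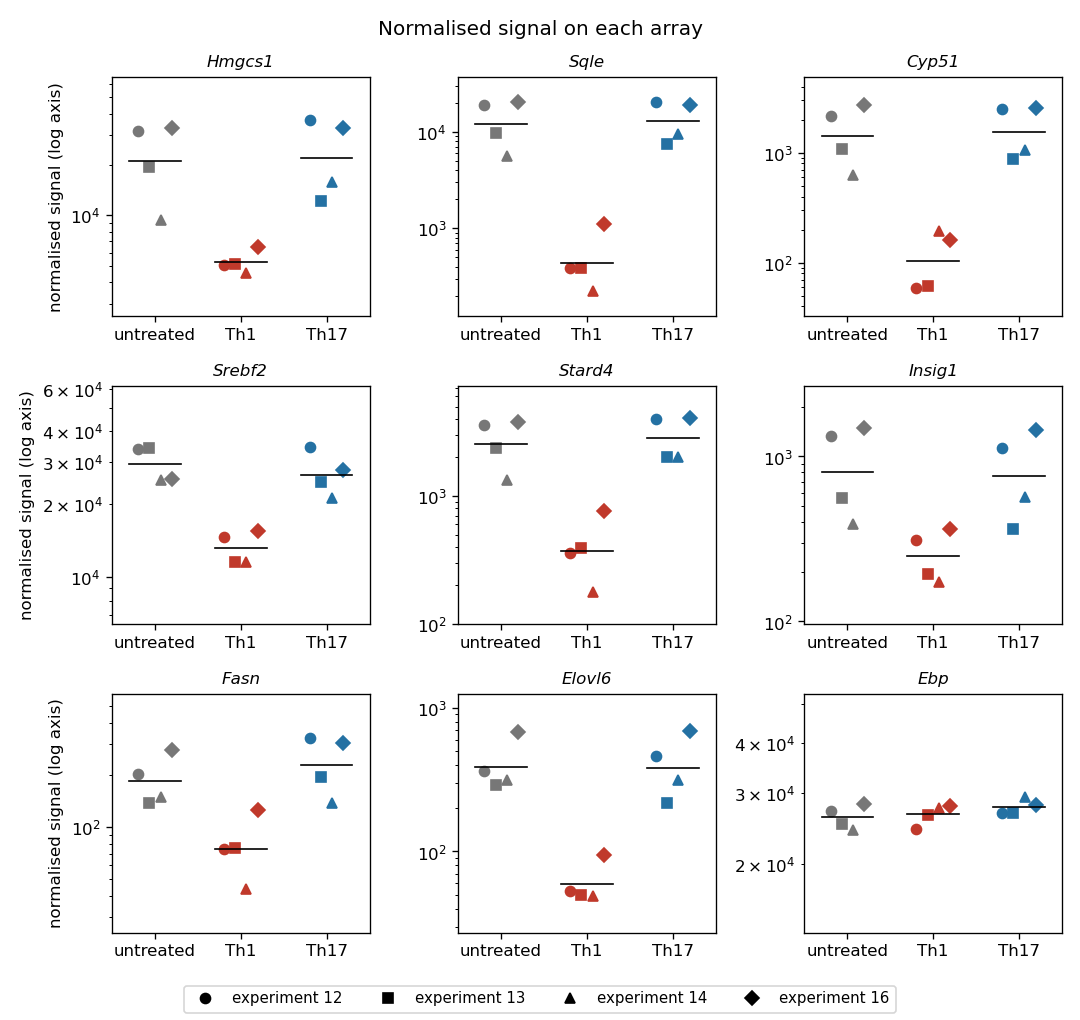
Normalised signal on each of the 12 arrays (vertical log axis, arbitrary intensity units after scaling) for 9 of the genes, with the marker shape giving the experiment and the black bar the geometric mean of the 4 arrays. Sqle, Cyp51, Stard4 and Elovl6 show Th1 arrays far below both other groups, whereas Ebp lies between 24346 and 29435 throughout.

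The bases before the transcription start were searched for letters tied to SREBP in textbooks, since these genes moved together. SREBP binds sterol response elements such as TCACNCCAC and acts with NF-Y, which binds an inverted CCAAT box (ATTGG), and with Sp1, which binds GGGCGG. RefSeq windows (GRCm38.p6) were at hand for 25 of the 32 genes, and not for Fdps, Fdft1, Sqle, Stard4, Scd1, Scd2 and Fads1. The 250 bases before each start were read on both strands, a gene counting when any of its windows held the letters. TCACNCCAC stood before 1 of these 25 genes, Hmgcs1, and before 1.3% of the 11159 array genes with a window. ATTGG stood before 14 of the 15 sterol genes with a window, before 4 of the 5 control genes and before 1 of the 5 fatty acid genes, beside 40.2% of the array genes. GGGCGG stood before 14 of 15, 5 of 5 and 2 of 5, beside 58.4%. These matches describe letters and not binding. The stretch of Hmgcs1 is shown because it alone among the 25 genes held TCACNCCAC. Other forms of the response element were not searched. Those of Cyp51 and Idi1, which fell most among sterol genes with a window, of Ebp, which was not lower, and of Elovl6, a fatty acid gene that fell as far as many sterol genes, were chosen after their values were seen. Each runs 5′ to 3′ on the gene's strand up to the base before its start, with TCACNCCAC, ATTGG and GGGCGG, or their reverse complements, in capitals.
Hmgcs1, chr13:119690164-119690350, plus strand: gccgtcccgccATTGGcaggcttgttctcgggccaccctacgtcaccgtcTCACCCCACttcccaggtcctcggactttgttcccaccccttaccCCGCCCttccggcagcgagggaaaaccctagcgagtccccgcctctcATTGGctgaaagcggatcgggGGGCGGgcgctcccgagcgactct
Cyp51, chr5:4104698-4104847, minus strand: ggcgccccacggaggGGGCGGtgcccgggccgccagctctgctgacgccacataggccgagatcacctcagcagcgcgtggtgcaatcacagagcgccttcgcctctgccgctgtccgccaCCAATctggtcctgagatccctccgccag
Idi1, chr13:8885456-8885605, plus strand: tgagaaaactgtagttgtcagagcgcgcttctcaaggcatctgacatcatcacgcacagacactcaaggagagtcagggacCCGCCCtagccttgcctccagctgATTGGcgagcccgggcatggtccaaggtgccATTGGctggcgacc
Ebp, chrX:8193513-8193662, minus strand: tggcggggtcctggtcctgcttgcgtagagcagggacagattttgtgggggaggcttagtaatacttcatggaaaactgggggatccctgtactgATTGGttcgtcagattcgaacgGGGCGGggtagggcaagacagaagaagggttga
Elovl6, chr3:129532236-129532385, plus strand: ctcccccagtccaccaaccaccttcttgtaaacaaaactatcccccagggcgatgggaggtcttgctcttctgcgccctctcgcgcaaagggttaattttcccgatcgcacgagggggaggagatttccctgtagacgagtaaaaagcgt
The printed stretches of Cyp51 and Idi1 held ATTGG and GGGCGG on either strand, and so did that of Ebp, whose signal did not differ between groups beyond its spread. The stretch of Elovl6 held none of the 3.

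The sterol genes also varied together between experiments, before any treatment. Over the untreated arrays the highest signal of a sterol gene was a median of 3.11 times the lowest, and the median SD was 0.83 on the log2 scale, beside 0.23 over all genes. Of the 18 genes, 16 were lowest on untreated 14, and 13 were highest on untreated 16 and the other 5 on untreated 12. Among Th17 arrays 17 of 18 were lowest on Th17 13. After Th1 supernatant the median SD was 0.35, and 16 of the 18 were highest on Th1 16.

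With each group's mean removed, the 153 pairs of sterol genes had a median Pearson correlation of 0.87 over the 12 arrays (0.26 to 0.99), where their pairs with all other genes had a median of 0.03. The 12 arrays come from 4 experiments of 3 arrays each, so these values do not rest on 12 unrelated points. Ebp stood lowest among the sterol genes, with a median correlation of 0.44 to the others. Pmvk, which was not lower after Th1 supernatant, still reached 0.89.

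**Figure D3:**
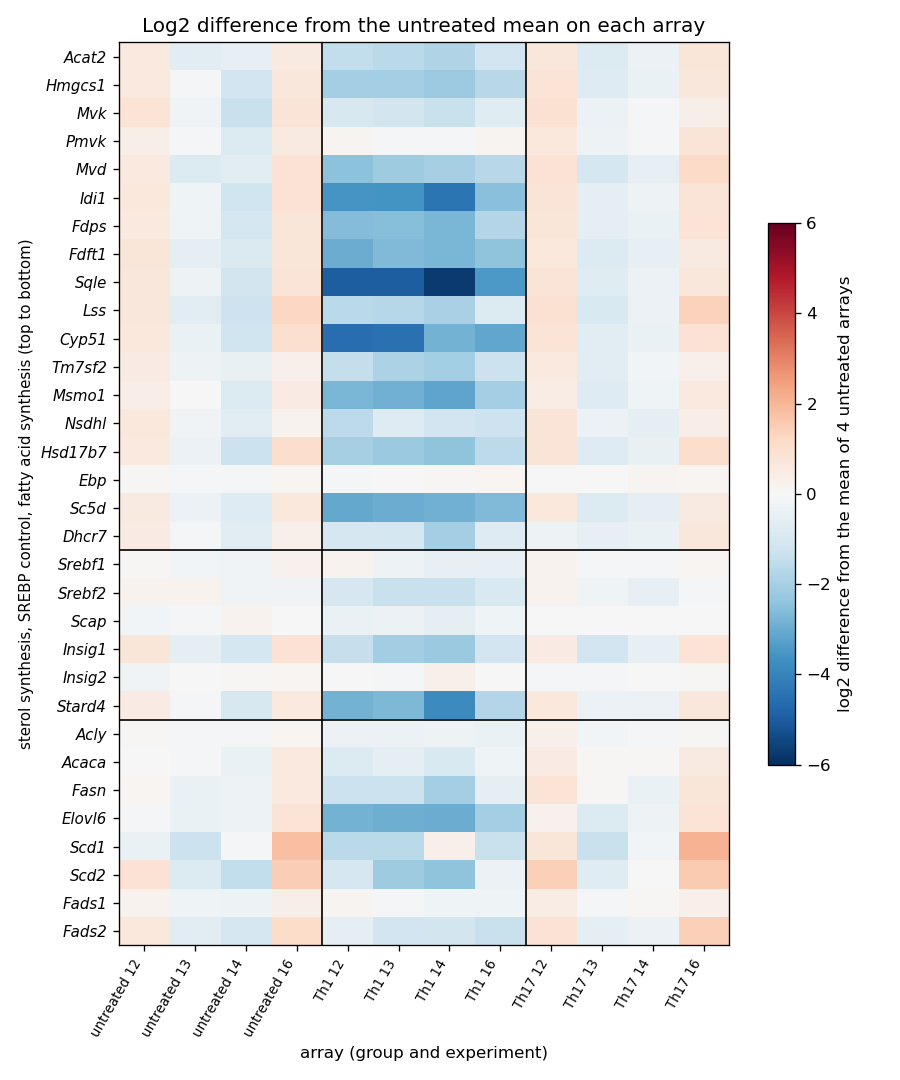
Log2 difference of each gene (rows) from the mean of the 4 untreated arrays on each of the 12 arrays (columns), blue for lower and red for higher. Within the untreated and Th17 blocks the sterol genes shade together by experiment, pale red in 12 and 16 and mostly blue in 13 and 14. In the Th1 block Pmvk, Ebp, Insig2 and Fads1 stay near white, and Scap, Srebf1 and Acly are near white or only pale blue.

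Set against the untreated array of its own experiment, the median Th1 difference of the sterol genes was -2.60 in experiment 12, -1.72 in 13, -1.36 in 14 and -2.42 in 16. Of the 18 genes, 16 were lower on the Th1 array in all 4 experiments. The smallest difference was in experiment 14, where the mean astrocyte and oligodendrocyte marker signals were highest within each group. Most untreated sterol signals were lowest there. The part of these markers in the result was not tested, and without experiment 14 the Th1 call was made for 10 of the 18 genes. Within the 3 slides the medians were -2.19, -1.33 and -2.42. Slides 1 and 2 mix experiments, and slide 3 sets the same Th1 and untreated arrays against each other as experiment 16.

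**Figure D4:**
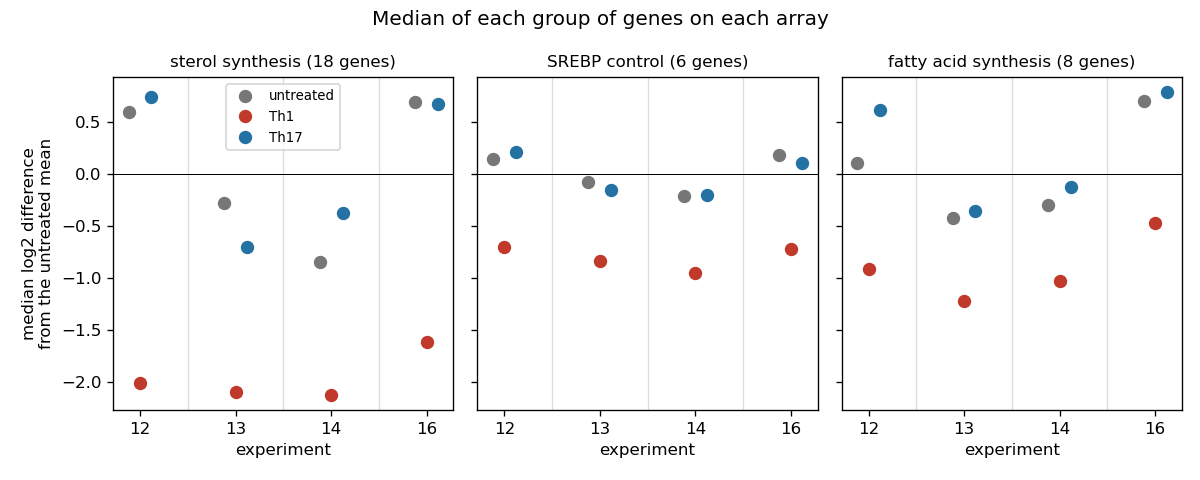
Median log2 difference of the sterol, SREBP control and fatty acid genes from the untreated mean (vertical axis) on each array, by experiment (horizontal axis) and group (colour). In each panel the Th1 array is the lowest of its experiment in all 4 experiments, while untreated and Th17 arrays of an experiment lie near each other and differ between experiments.

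The genes that control SREBP split. Of the 6, 2 fell after Th1 supernatant and none rose, where 7.88% of all genes fell and 7.49% rose, and the median was -0.77. Srebf2, which encodes SREBP2 and is itself a sterol-regulated gene, read 33743, 34210, 25303 and 25499 on untreated arrays and 14722, 11596, 11517 and 15570 on Th1 arrays, a fall of 1.15 ± 0.18 (adjusted p = 0.000286). The groups lay apart, and a second Srebf2 probe gave -1.52. With 75th percentile scaling alone the first probe differed by -0.90 (adjusted p = 0.00106), under the 2-fold limit. Stard4, a carrier that moves cholesterol between membranes, read 1331 to 3784 untreated and 179 to 764 after Th1 supernatant, a fall of 2.78 ± 0.46 (adjusted p = 0.000482), and its second probe gave -1.61.

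Insig1, the sterol-responsive retention protein, read 1331, 559, 388 and 1493 untreated and 312, 193, 173 and 365 after Th1 supernatant. Every Th1 array was below every untreated one, with a difference of -1.71 ± 0.52 (adjusted p = 0.0196). It was called with the experiments as blocks (adjusted p = 0.000201) and without untreated 14 (0.00792). Its residuals followed those of the sterol genes with a median correlation of 0.93. Insig2, its less sterol-responsive relative, differed by 0.04 ± 0.11 with a 95% interval of -0.20 to 0.29. Scap read 9953 to 12841 untreated and 7581 to 9196 after Th1 supernatant, a difference of -0.39 ± 0.10 that had an adjusted p of 0.00793 but stayed under 2-fold. Srebf1, which encodes the SREBP1 forms, read 230 to 318 untreated and 186 to 304 after Th1 supernatant (-0.27 ± 0.17, adjusted p = 0.208). The groups did not overlap for Srebf2, Stard4, Insig1 and Scap, 4 of the 6, where 21.9% of all genes were lower on every Th1 array.

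In the model without blocks 1 of the 8 fatty acid genes fell and none rose, a share near the 7.88% of all genes that fell. The median of the 8 was -1.05. Elovl6, which elongates palmitate to stearate, read 360, 289, 314 and 677 on untreated arrays and 53, 50, 49 and 94 on Th1 arrays. The log2 difference was -2.70 ± 0.37 (adjusted p = 0.000148), and within the experiments it ran from -2.85 to -2.52. It was called in all 23 other settings, in which it ranged from -2.92 to -1.25, the latter with normexp background correction, which adds an offset of 50. Fasn, the fatty acid synthase, read 201, 138, 149 and 279 untreated and 75, 76, 44 and 125 after Th1 supernatant. These did not overlap and differed by -1.30 ± 0.36 (adjusted p = 0.0116). Fasn passed with the experiments as blocks (adjusted p = 0.00028) and without Th1 16 (0.0048) or Th17 14 (0.00852).

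The enzymes around them were not called in the model without blocks, though all 8 fatty acid genes had a negative difference. Of the 8, 6 were lower on the Th1 array in all 4 experiments. For 3 of the 8 the groups did not overlap, where 21.9% of all genes were lower on every Th1 array. Acly, which supplies cytosolic acetyl-CoA, read 24483 to 29167 untreated and 20541 to 21995 after Th1 supernatant (-0.34 ± 0.12, adjusted p = 0.0338). Acaca, the acetyl-CoA carboxylase, differed by -0.66 ± 0.22 (adjusted p = 0.029). Scd2, the abundant stearoyl-CoA desaturase of brain, read 25000, 7773, 4923 and 39039 untreated and 6978, 3171, 2627 and 11025 after Th1 supernatant. The untreated arrays alone spanned a wide range that overlapped the Th1 arrays, and the difference was -1.47 ± 0.74 (adjusted p = 0.132). It was lower on the Th1 array in all 4 experiments, with log2 differences of -1.84, -1.29, -0.91 and -1.82, and was called with the experiments as blocks (adjusted p = 0.000912). With that block 3 of the 8 fatty acid genes fell, beside 9.31% of all genes.

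The desaturases Scd1 and Fads2 were near background. Scd1 read 18 to 160 untreated and 15 to 56 after Th1 supernatant, and was well above background on 1 Th1 array. Fads2 read 19 to 80 and 15 to 26, likewise on 1 Th1 array. Neither passed (adjusted p = 0.302 and 0.131). Fads1, the delta-5 desaturase, differed by -0.11 ± 0.18 with a 95% interval of -0.51 to 0.28. Fatty acid genes correlated with the sterol genes across arrays after the group means were removed (median 0.76 over 144 pairs), Scd2 most closely at a median of 0.91.

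Th17 supernatant left no call in any of the 32 genes. Of all genes tested 0% were called lower and 0% higher. By limma without blocks, the only tool run, 325 of the 19802 (1.64%) had an unadjusted p under 0.05, with none of the 32 among them. That share is below the one a threshold of 0.05 gives where nothing differs, and the reason was not tested. The median difference was 0.09 for the sterol genes, -0.02 for the control genes and 0.30 for the fatty acid genes. Sqle read 20599, 7433, 9568 and 19243 on the Th17 arrays, which overlapped the untreated arrays throughout, and differed by 0.10 ± 0.55. Scd2 had the largest difference, 0.57 ± 0.74. In the model without blocks the 95% intervals of the 18 sterol genes together ran from -1.11 to 1.56. That model thus did not bound a change of more than 2-fold for all of them. With the experiments as blocks the SE went from 0.55 to 0.28 for Sqle, from 0.60 to 0.29 for Lss and from 0.57 to 0.49 for Cyp51. Intervals are given here for the model without blocks only. For Ebp the interval was -0.11 to 0.28 and for Srebf1 -0.32 to 0.41. Within the experiments the sterol median was 0.13, -0.29, 0.62 and 0.00, and within the slides 0.57, 0.33 and -0.55. The slide values mix experiments, since slide 2, for example, sets Th17 13 against untreated 14.

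The supernatants were also set against each other, a comparison that shares its Th1 arrays with the first. There 12 sterol genes were lower with Th1 than with Th17 supernatant and none was higher, with a median of -2.11. Of all genes 7.91% were lower and 6.89% higher, and the median of all genes was -0.04. The difference was -4.88 ± 0.55 for Sqle, -3.91 ± 0.57 for Cyp51 and -3.67 ± 0.51 for Idi1. Srebf2 (2.01-fold, adjusted p = 0.00078) and Stard4 (-2.94 ± 0.46) were lower too. Srebf2 lay at the 2-fold limit, and without Th1 13 (-0.94), Th1 14 (-0.94), Th17 12 (-0.88) or Th17 16 (-0.99), with slide as a block (-0.97) or with 75th percentile scaling alone (-0.73) it no longer exceeded it. Acat2, Mvd and Hsd17b7 again lost the call in fits that left out 1 array, namely Th1 12, 13 or 14 or Th17 12 or 16 (adjusted p of 0.0129 to 0.0209).

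Among the fatty acid genes Elovl6 (-2.69 ± 0.37) and Fasn (-1.60 ± 0.36, adjusted p = 0.00368) were lower with Th1 than with Th17 supernatant, with a median of -1.39 over the 8. Fasn read 326, 195, 138 and 305 on the Th17 arrays, all above the Th1 arrays. It missed the rule without Th1 12 (adjusted p = 0.0106), Th1 14 (0.011), Th17 12 (0.013) or Th17 16 (0.0123), and with normexp background correction it differed by -0.76. Acaca differed by -0.95 ± 0.22 (adjusted p = 0.00437), just under 2-fold, and was called without Th1 16, Th17 13 or Th17 14 (0.00272, 0.00675 and 0.00624). With the experiments as blocks, where 9.05% of all genes were lower, Mvk, Lss, Nsdhl, Dhcr7, Insig1 and Scd2 were called as well (adjusted p of 0.00722, 0.00111, 0.00854, 0.00211, 0.000286 and 0.000157).

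Other lipid genes gave a mixed picture. Of 12 further measured fatty acid and lipid genes, 3 fell and 2 rose (median -0.34), beside 7.88% and 7.49% of all genes. Lpin1, a phosphatidate phosphatase, fell by 3.26 ± 0.40, Me1, the malic enzyme that supplies NADPH, by 2.87 ± 0.42 and Acsl3, an acyl-CoA synthetase, by 2.42 ± 0.37. Acsl1, another acyl-CoA synthetase, rose by 2.60 ± 0.15, from 4051 to 5075 up to 24874 to 37342. Dgat2, which makes triglyceride and was named after its value was seen, rose by 1.14 ± 0.14. None of the 7 genes of SREBP cleavage and Insig turnover was called in any comparison, and their Th1 differences ran from -0.54 to 0.84. The 2 at the ends, Mbtps1 (-0.54 ± 0.11, adjusted p = 0.00175) and Rnf139 (0.84 ± 0.16, adjusted p = 0.00119), missed only the 2-fold limit. Both were named after their values were seen.

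Of 11 measured oxysterol and LXR genes, 2 rose after Th1 supernatant and none fell (median 0.04), beside 7.49% and 7.88% of all genes. Ch25h makes 25-hydroxycholesterol, a sterol known to hold SREBP in the endoplasmic reticulum. It read 1311, 8433, 13037 and 7645 on untreated arrays and 67705, 80408, 153999 and 64652 on Th1 arrays, a rise of 3.90 ± 0.82 (14.9-fold, adjusted p = 0.0025). On Th17 arrays it read 1319 to 18354, a difference of 0.12 ± 0.82. Abcg1, a cholesterol exporter, rose by 2.98 ± 0.28, while Abca1, its partner in efflux, also named after its values were seen, differed by 0.04 ± 0.24 after Th1 supernatant and by 0.66 ± 0.24 after Th17 supernatant (adjusted p = 1).

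**Figure D5:**
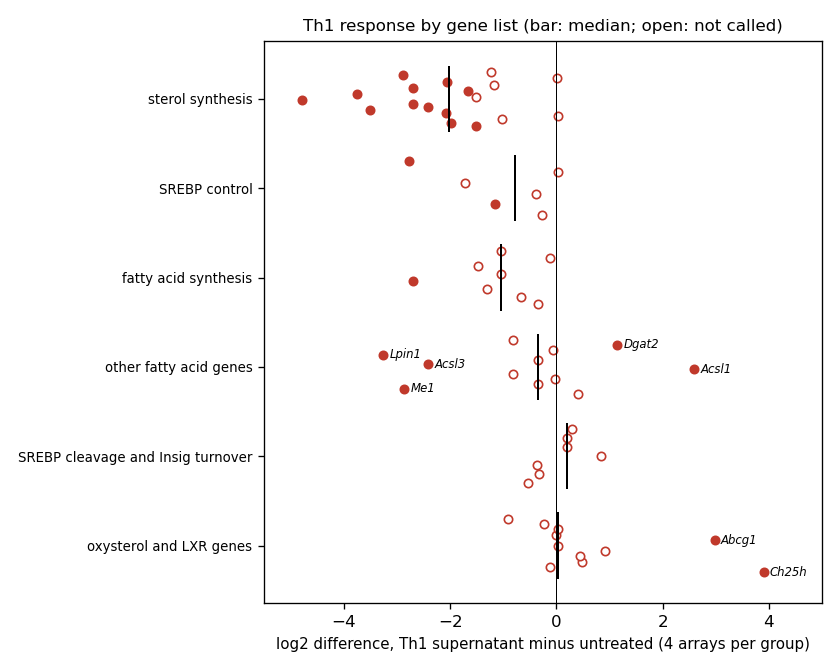
Log2 difference after Th1 supernatant (horizontal axis, 4 arrays per group) for the genes of each list, with filled points for called genes and a bar at the list's median. The sterol list has the lowest median, -2.02, while the oxysterol and LXR list has a median of 0.04 with Abcg1 and Ch25h far to the right.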

How the data were processed

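Total RNA of microglia was hybridised to 12 one-colour Agilent arrays. The deposited scanner files held background-subtracted, spatially detrended intensity values from Feature Extraction 10.7.3.1, and the authors' value table held log2 values, whose scale and centring were found by comparison with the scanner values since no source states them. The value table served as an alternative only. Spots of a probe were averaged without control and outlier spots, and arrays were quantile normalised, scaled to a 75th percentile of 1500, floored at 15 and log2 transformed. Probes well above background on at least 4 of 12 arrays were kept, 24287 in all, and a gene took its kept probe of highest mean. Genes were named through transcript accessions (RefSeq, GRCm38.p6), which gave a symbol for 70.5% of the 19802 genes. The model, fitted to all 12 arrays in limma (version 3.58.1, under R 4.3.3), held a mean for each group, the Benjamini-Hochberg adjustment ran across every gene tested, and calls required an adjusted p below 0.01 and more than 2-fold. The code was tested on simulated data. Experiment numbers paired the arrays but were not in the main model, and they entered as a block only in an alternative. The labels carry them, the study describes 4 independent experiments, and same-numbered arrays deviated together (r of 0.24 to 0.63 over 12 pairs, -0.42 to 0.12 over 36 other pairs). Alternatives changed the scaling, background correction, filter, floor, probe rule, blocks, threshold and arrays. Normexp used the median signal, since the files hold no mean signal. The 32 genes, the other lists and the tests were chosen with earlier results of these data known. All 32 were named, and from the other lists the called genes, at most the 4 of largest change, with Ch25h whatever its value. A further list of sterol genes is not reported here. Promoters were to be printed where they held TCACNCCAC. The number of arrays, 4 per group, limits the precision.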

Additional observations from a re-analysis of the deposited data

Results flagged for a closer look

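In 3 of 96 groups of 4 arrays examined, 3 treatment groups for each of the 32 genes, 1 array lay far from the other 3 by Dixon's test, where chance gives about 1 in 20. Dhcr7 had a normalised signal of 3479 on Th17 16 against 1549 to 1765 on the other Th17 arrays. Elovl6 had 94 on Th1 16 against 49 to 53 on the other Th1 arrays, which is still below every untreated and Th17 array. Scd1 had 56 on Th1 14 against 15 to 18, near background on all 4.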

How the results depend on the processing

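The counts of genes called lower were 12 of 18 (sterol), 1 of 8 (fatty acid) and 2 of 6 (control) for Th1 against untreated, and 12 and 2 for sterol and fatty acid genes against Th17. Leaving out 1 array in turn gave ranges of 8 to 15, 1 to 2, 2 to 3, 9 to 14 and 1 to 3. The Th17 count against untreated was 0 in every alternative. Fatty acid calls against untreated rose to 2 with 75th percentile scaling or the deposited value table, 3 with the experiments as a replicate block and 4 at an adjusted p under 0.05 with no fold threshold. Control calls went to 1 with that scaling or the value table, 3 with the replicate block and 4 at the looser threshold. Fatty acid calls against Th17 went to 1 with normexp or with no filter, 3 with the replicate block and 6 at the looser threshold. Sterol calls against untreated went to 8 with no filter and 14 with the replicate block, and against Th17 to 9 with a floor of 50 and 16 with the block. No called difference of the 32 genes changed sign. Differences that were not called did, such as Pmvk (-0.25 to 0.27) for Th1 against untreated and Mvk (-0.25 to 0.47) for Th17. For Th1 against untreated the block added Lss, Dhcr7, Insig1, Fasn and Scd2 and changed no other call among the 32. Over all genes, calls went from 1560 lower and 1484 higher to 955 and 1046 with normexp, and to 4840 and 3939 at the looser threshold. Leaving out experiment 14 was chosen after seeing the data. The cause of these shifts was not tested.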
